A study of Mus musculus with 21 samples.

Results

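The guanylate-binding proteins (GBPs) are a family of large GTPases, and 10 of their genes are described here: *Gbp2*, *Gbp2b*, *Gbp3*, *Gbp4*, *Gbp5*, *Gbp6*, *Gbp7*, *Gbp8*, *Gbp9* and *Gbp10*. They were matched by gene symbol in the 2 count tables of the series, where they make up 10 of 55491 genes. The family was chosen by measured values, because *Gbp2b* and *Gbp3* had drawn attention in the irradiated *Ifnk* TG lymph nodes. Every comparison with those nodes as a compared group is therefore given below as a description with no test. The tested node comparisons share their fit and its estimate of the spread with those nodes, so they are not fully independent of them. All 10 members passed the filter on low counts in both tissues. RNA was sequenced from skin and from inguinal lymph nodes of mice that carry an additional *Ifnk* gene under the keratin 14 promoter, which drives expression in the epidermis (*Ifnk* TG), and of BALB/c wild-type (WT) mice. The transgene was made on C57BL/6 and backcrossed onto BALB/c, so the transgene and any C57BL/6 sequence that stayed near it cannot be told apart. Skin came from mice aged 12 months without UV treatment: WT skin (3 libraries), nonlesional *Ifnk* TG skin (2 libraries) and lesional *Ifnk* TG skin (4 libraries). Nodes came from WT and *Ifnk* TG mice, either untreated (NoTx) or shaved on the back and irradiated with 250 mJ/cm2 UVB at 310 nm on 3 days a week for 2 weeks and then observed for 2 weeks, with 3 libraries in each of the 4 groups. The age of the node donors is not given in the labels. Libraries are named here by the sample numbers of the labels, which carry no order and pair no libraries between the compared groups. No label says which mouse or body site a library came from, so p-values measure only the spread between these libraries.

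GBPs are among the most strongly inducible genes of the interferon response. IFNγ acts on genes through gamma-activated sites (GAS), while type I interferons, to which IFNκ belongs, act mainly through interferon-stimulated response elements (ISREs). *Irf1*, itself induced by IFNγ, binds ISRE-like sites as well. The proteins assemble on the vacuoles and membranes of intracellular pathogens, together with the smaller immunity-related GTPases (IRGs), and help to open them and to start inflammasome signalling. In skin they are made by keratinocytes, endothelium and infiltrating leukocytes once interferon is present, and lymph node cells express them at rest.

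The 10 genes lie in 2 clusters (GRCm38, GENCODE M21). *Gbp5*, *Gbp7*, *Gbp3*, *Gbp2b* and *Gbp2* follow each other on the plus strand at chr3:142493978-142638008. The genes *Gbp8*, *Gbp9*, *Gbp4*, *Gbp10* and *Gbp6* lie on the minus strand at chr5:105014150-105293698. RefSeq promoters on GRCm38.p6 were matched for 5 of the 10 members, all on chromosome 3 and 6 promoters in all, since *Gbp3* has 2. The ISRE core GAAANNGAAA, searched on both strands, was found in a promoter of all 5 of them (5 of 6 promoters), against 3.44% of 32851 promoters of the same length (250 bases before the start and 50 after it). The GAS core TTCNNNGAA was found in the promoters of *Gbp5* and *Gbp7*, at 2 places each, against 8.3% of all promoters. The 5 promoters with an ISRE core are shown, and any link between these cores and the expression values below was not tested. The sequences below hold the 250 bases before the start site, 5′ to 3′ on the plus strand, with capitals marking each match to either core.
*Gbp5*, chr3:142496684-142496933: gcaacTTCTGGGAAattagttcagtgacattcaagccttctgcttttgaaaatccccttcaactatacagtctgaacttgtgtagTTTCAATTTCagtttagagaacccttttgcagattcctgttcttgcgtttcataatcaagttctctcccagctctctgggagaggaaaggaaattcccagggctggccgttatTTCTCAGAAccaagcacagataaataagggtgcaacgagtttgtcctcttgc
*Gbp7*, chr3:142530086-142530335: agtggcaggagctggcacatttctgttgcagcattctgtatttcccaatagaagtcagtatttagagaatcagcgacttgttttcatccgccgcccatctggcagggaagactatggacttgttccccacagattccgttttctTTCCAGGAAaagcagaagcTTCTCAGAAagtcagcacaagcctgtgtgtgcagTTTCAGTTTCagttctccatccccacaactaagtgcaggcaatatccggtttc
*Gbp3*, chr3:142559794-142560043: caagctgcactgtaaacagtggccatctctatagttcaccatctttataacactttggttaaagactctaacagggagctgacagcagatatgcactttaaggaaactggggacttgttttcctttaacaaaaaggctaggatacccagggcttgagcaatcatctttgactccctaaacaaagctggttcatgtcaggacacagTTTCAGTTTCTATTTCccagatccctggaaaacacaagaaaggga
*Gbp2b*, chr3:142594597-142594846: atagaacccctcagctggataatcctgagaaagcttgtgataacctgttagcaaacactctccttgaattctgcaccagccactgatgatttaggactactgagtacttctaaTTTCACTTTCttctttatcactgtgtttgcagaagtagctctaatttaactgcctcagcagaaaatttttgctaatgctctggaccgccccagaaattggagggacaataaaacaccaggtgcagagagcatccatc
*Gbp2*, chr3:142620413-142620662: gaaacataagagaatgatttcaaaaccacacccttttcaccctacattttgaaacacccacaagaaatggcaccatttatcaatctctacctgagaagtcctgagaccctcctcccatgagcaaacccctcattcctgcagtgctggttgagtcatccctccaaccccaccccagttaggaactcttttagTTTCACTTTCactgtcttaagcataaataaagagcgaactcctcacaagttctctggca
The RefSeq start of *Gbp5* lies inside its GENCODE span. All ISRE matches were on the strand opposite to the one shown, and the 2 matches in *Gbp3* overlap. They began 165 bases before the start in *Gbp5*, 53 in *Gbp7*, 45 and 39 in *Gbp3*, 137 in *Gbp2b* and 59 in *Gbp2*. The first capitals of *Gbp5* and the last are its GAS cores, and the first 2 runs of capitals of *Gbp7* are its own. A match is a run of letters and was not tested as a site.

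Several members could not be separated fully from their neighbours. The annotated spans of *Gbp8* (105014150 to 105139540), *Gbp9* (105077630 to 105139539) and *Gbp4* (105115767 to 105139586) overlap on the same strand, and *Gm43302* (105214907 to 105293695), annotated as protein coding, spans both *Gbp10* and *Gbp6*. *Gbp6* and *Gbp10* are also close paralogs. Reads shared among these genes were divided by the counting model, so their single values are less certain than those of the chromosome 3 genes. *Gbp2-ps*, a pseudogene beside *Gbp2*, and *Gbp11*, annotated as a polymorphic pseudogene, are not members.

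Total counts per library were 40499078 to 56511276 in skin and 27599809 to 36428435 in nodes. *Ifnk* itself had 0 counts in every WT skin library, 6 and 0 in the nonlesional libraries, 5 to 14 in the lesional libraries and 0 in every node library, which allows up to 3 counts per library. The lowest count of any GBP gene was 10, for *Gbp8* in nonlesional library 3. No 2 libraries of a group agreed within counting noise (lowest chi-square per gene 15.1, where 1 is expected). *Xist*, which marks female tissue in mice, was at 0.319 CPM (counts scaled to a common library size by TMM) in nonlesional library 3 and 0.132 CPM in lesional library 6, between 78.9 and 179 CPM in the other skin libraries, and at most 1.46 CPM in the nodes. Keratinocyte markers summed to at least 9074 CPM in every skin library, and in nodes 7 of 9 (among them *Krt5* and *Krt14*) were at 0 in at least 1 library of every group while the list summed to 1.20 to 2.48 CPM.

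The family was expressed at a higher level in nodes than in skin. Divided by exon length, the 10 genes summed to 42.1 to 55.9 CPM per kb in WT skin and to 244 to 344 CPM per kb in untreated WT nodes. The tissues were counted and scaled separately, so this contrast is given without a test. *Xist* was at 78.9 to 179 CPM in WT skin and 0.241 to 0.376 CPM in untreated WT nodes. The age of the node donors is not given, so tissue, sex and age cannot be told apart here. *Gbp2* led the order of levels per kb in WT skin with 15.7 ± 1.99 CPM per kb (SD, n = 3) and a mean share of 33.1% of the family, followed by *Gbp2b* with 10.2 ± 0.853 CPM per kb and 21.6%. Both stood above the next gene in every library. *Gbp3*, *Gbp7*, *Gbp10*, *Gbp4* and *Gbp9* followed between 5.43 and 2.72 CPM per kb, each overlapping with its neighbour in that order, and *Gbp8* came last with 0.203 ± 0.0569 CPM per kb. In untreated WT nodes *Gbp2* was again first (60.5 ± 9.28 CPM per kb, n = 3), but its libraries overlapped with those of *Gbp9* (53.2 ± 13.8 CPM per kb) and *Gbp4* (48.2 ± 8.10 CPM per kb). The shares of 3 chromosome 5 genes, and of *Gbp5* and *Gbp7* on chromosome 3, were larger in nodes than in skin in every library. For *Gbp5* the mean share was 3.62% in untreated WT nodes and 1.76% in WT skin, and for *Gbp7* 12.35% and 10.34%. *Gbp8* made up 3.99% of the family in untreated WT nodes and 0.436% in WT skin, *Gbp9* made up 18.9% and 5.70%, and *Gbp4* made up 17.4% and 5.92%, while *Gbp10* had 3.44% in nodes and 7.36% in skin. *Gbp2b* passed *Gbp2* in lesional skin by its mean (47.9 against 43.6 CPM per kb), with overlapping libraries.

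**Figure D1:**
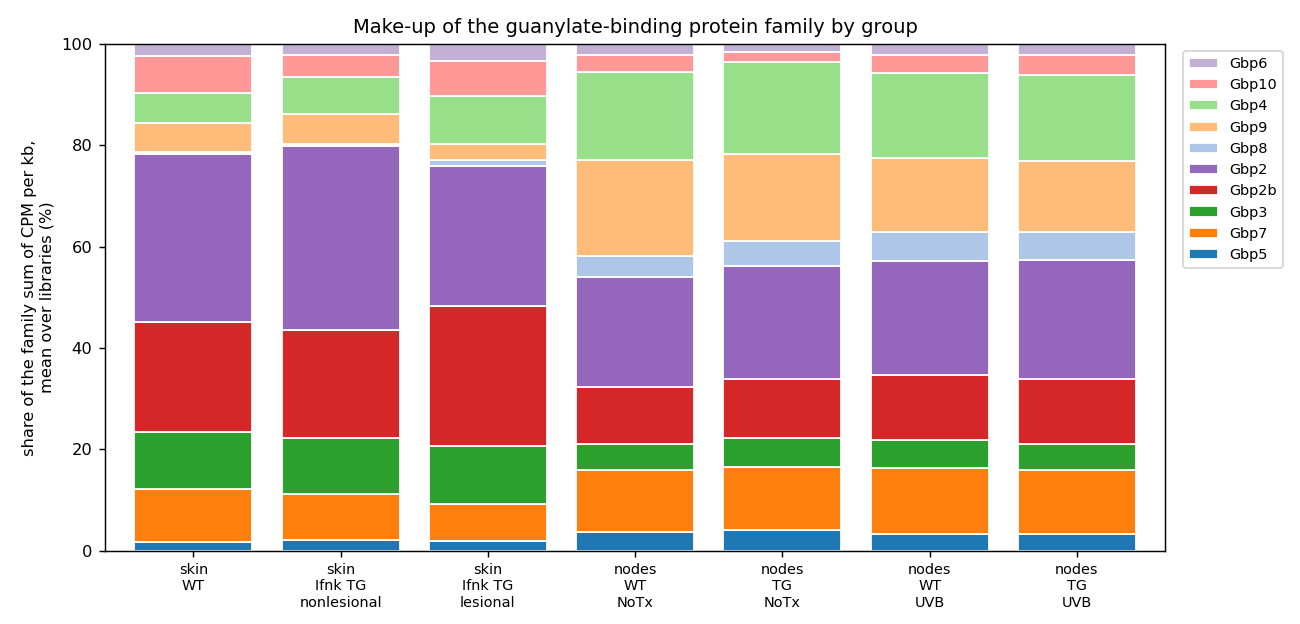
Mean share of each gene in the family sum of CPM per kb of exon (percent, y axis) in the 7 groups (x axis), with chromosome 3 genes in dark and chromosome 5 genes in pale colours. *Gbp2* and *Gbp2b* take 33.1% and 21.6% in WT skin, and *Gbp4* and *Gbp9* take larger shares in nodes.

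Lesional skin was compared with WT skin to ask which GBPs change where lesions form. Of the 10 genes, 6 rose at an adjusted p under 0.05 (edgeR's quasi-likelihood test), against 23.0% of all 19101 tested genes called higher. These were *Gbp8*, *Gbp4*, *Gbp2b*, *Gbp6*, *Gbp5* and *Gbp3*, and none fell. The median log2 fold change of the 10 members was 1.87, against 0.06 over all tested genes. In 6 of 10 members every lesional library stood above every WT library, a pattern shown by 26.0% of all genes, and these were the 6 called. The lesional libraries divided in a way that recurred in member after member: libraries 4 and 6 were high, and libraries 5 and 7 lay nearer to WT.

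On chromosome 3, *Gbp2b*, the mouse gene once named *Gbp1*, was at 31.2, 28.6 and 26.4 CPM in WT libraries 8 to 10, at 31.3 and 22.2 CPM in nonlesional libraries 2 and 3, and at 147, 46.4, 306 and 40.9 CPM in lesional libraries 4 to 7. All 4 lesional libraries were above both other groups. Its log2 fold change over WT was 2.23 (SE 0.71, adjusted p = 0.0346). *Gbp3*, which helps to restrict intracellular pathogens, was at 22.1, 16.8 and 14.3 CPM in WT skin, 14.2 and 16.9 CPM in nonlesional skin and 63.3, 24.6, 94.5 and 27.9 CPM in lesional skin. Its lowest lesional library lay close to the highest WT library, and its log2 fold change was 1.57 (SE 0.48, adjusted p = 0.0297). *Gbp5*, known for promoting the Nlrp3 inflammasome, was lower in level, with 7.41, 4.49 and 4.92 CPM in WT skin and 18.7, 8.24, 42.1 and 10.5 CPM in lesional skin (log2 fold change 1.83, SE 0.56, adjusted p = 0.0304). *Gbp2*, which acts against Toxoplasma and helps to open bacterial vacuoles, did not pass. It was at 45.0, 35.4 and 37.9 CPM in WT skin and at 120, 37.6, 229 and 51.3 CPM in lesional skin, so library 5 fell among the WT libraries, and its log2 fold change of 1.48 had an SE of 0.59 (adjusted p = 0.0753). *Gbp7*, linked to defence against intracellular bacteria, likewise overlapped, at 33.2, 27.4 and 22.3 CPM in WT skin and 71.3, 27.2, 109 and 29.9 CPM in lesional skin (log2 fold change 1.10, SE 0.49, adjusted p = 0.103).

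On chromosome 5, *Gbp8* had the largest fold change of the family at the lowest level. It was at 0.707, 0.499 and 0.890 CPM in WT skin and 6.37, 2.29, 16.6 and 2.38 CPM in lesional skin, so that every lesional library had more than any WT library (log2 fold change 3.30, SE 0.87, adjusted p = 0.0163). *Gbp4* was at 32.2, 14.9 and 17.7 CPM in WT skin and 99.1, 50, 264 and 42.9 CPM in lesional skin, again without overlap (log2 fold change 2.40, SE 0.68, adjusted p = 0.0230). *Gbp6*, like *Gbp10* linked to defence against intracellular bacteria, was at 9.15, 5.60 and 5.42 CPM in WT skin and 28.4, 12.7, 55.1 and 16.6 CPM in lesional skin (log2 fold change 2.07, SE 0.52, adjusted p = 0.0138). Its paralog *Gbp10* differed from it in library 5. *Gbp10* was at 14.2, 15.9 and 10.2 CPM in WT skin and 69.4, 5.67, 111 and 17.4 CPM in lesional skin, with library 5 below every WT library (log2 fold change 1.92, SE 0.88, adjusted p = 0.112). The ratio of *Gbp10* to *Gbp6* was 1.56 to 2.83 in WT skin, 2.45, 2.01 and 1.04 in lesional libraries 4, 6 and 7, and 0.446 in library 5. *Gbp11* was lowest in the same library, at 1.90 CPM against 7.37 to 10.3 CPM in WT skin. With *Gbp6* and *Gbp10* summed into 1 feature, a choice made after seeing the data, the log2 fold change was 1.97 and the adjusted p 0.0510, so the call of *Gbp6* does not extend to the pair. *Gm43302*, which spans both, rose by itself (log2 fold change 1.90, SE 0.60, adjusted p = 0.0343). *Gbp9* moved least, at 17.8, 11.6 and 12.9 CPM in WT skin and 21.4, 11.7, 45.1 and 14.9 CPM in lesional skin (log2 fold change 0.72, SE 0.44, adjusted p = 0.215).

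**Figure D2:**
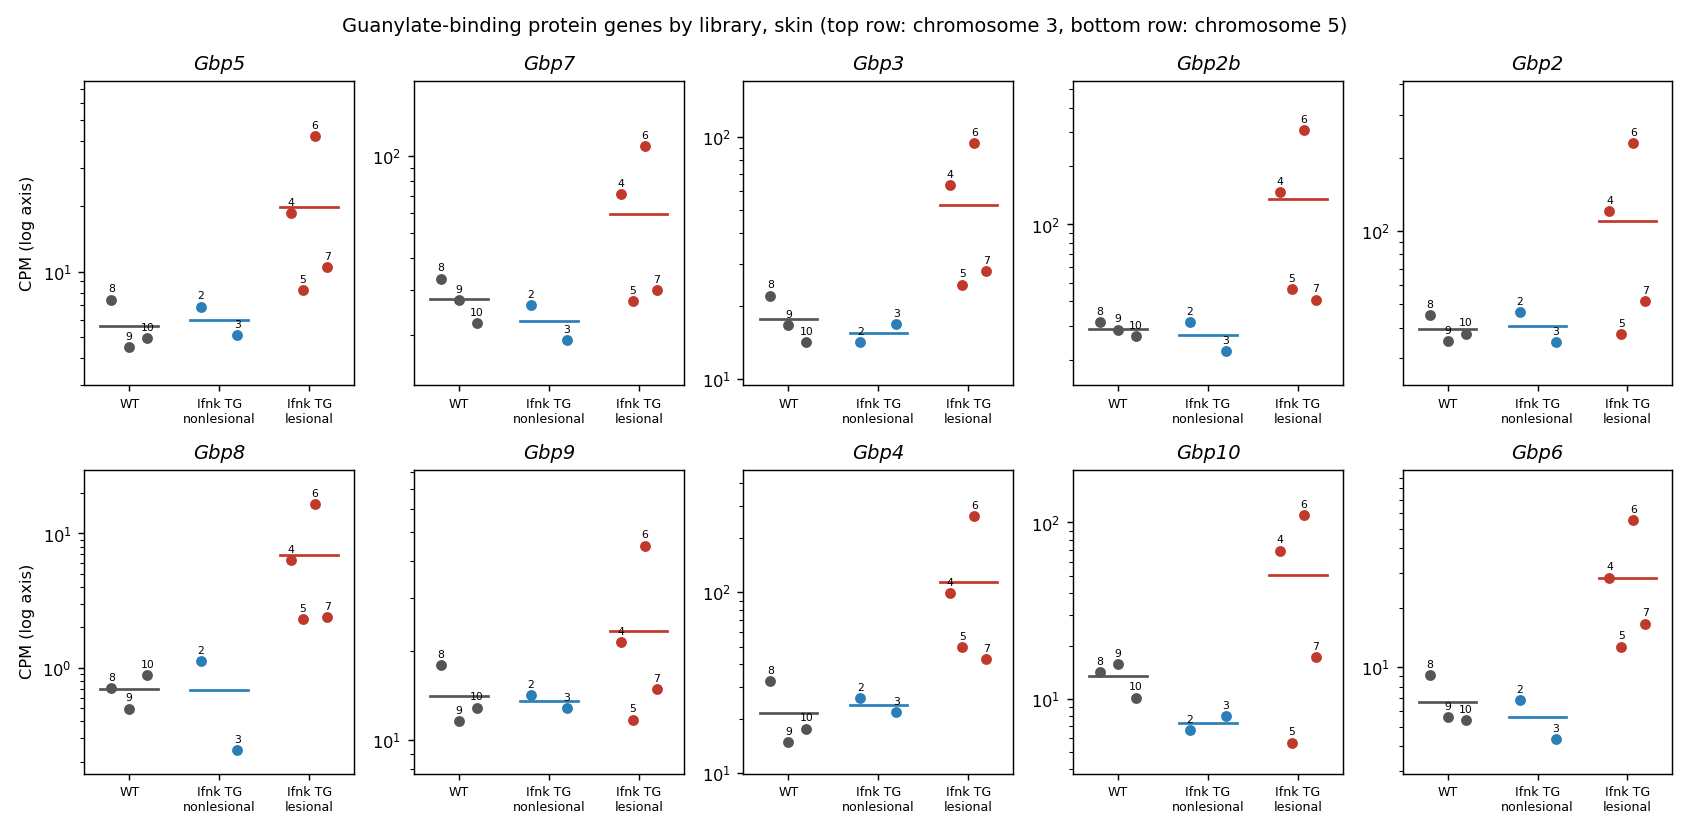
CPM (log axis) of each GBP gene in the 9 skin libraries, by group; points are libraries with the sample number of the labels and bars are group means. Lesional libraries 4 and 6 are the highest for all 10 genes, and lesional library 5 is below all WT libraries for *Gbp10*.

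The number of members called depended on single libraries. It was 2, 0 and 1 without WT library 8, 9 or 10, 5 without either nonlesional library, and 4, 9, 5 and 6 without lesional library 4, 5, 6 or 7, while the median log2 fold change stayed between 1.18 (without library 6) and 2.19 (without library 5). Without the low-count filter 2 members were called (*Gbp6* and *Gbp8*). With *Xist* as a covariate, which lesional library 6 had near 0 and all WT libraries had, 4 were called with a median of 1.42, and *Gbp2b* (adjusted p = 0.0627) and *Gbp5* (adjusted p = 0.0549) were not.

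Lesional skin gave a like picture against nonlesional *Ifnk* TG skin, with which it shares the lesional libraries, but fewer calls. *Gbp6* (log2 fold change 2.33, SE 0.63, adjusted p = 0.0290) and *Gbp8* (3.30, SE 1.03, adjusted p = 0.0481) rose, 2 of 10 members against 13.2% of all genes called higher. All lesional libraries were above both nonlesional libraries in 7 members, against 24.7% of all genes. The other 8 members had log2 fold changes from 0.78 (*Gbp9*) to 2.79 (*Gbp10*), the latter with an SE of 1.09 and an adjusted p of 0.0967, and *Gbp2b* and *Gbp3* were at 2.34 (adjusted p = 0.0764) and 1.76 (adjusted p = 0.0542). The sum of *Gbp6* and *Gbp10* was at 2.61 (adjusted p = 0.0573). Calls numbered 1 without any of the 3 WT libraries, 0 without either nonlesional library, 1 without lesional library 4 or 6, 6 without lesional library 5 and 4 without lesional library 7.

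Nonlesional *Ifnk* TG skin was compared with WT skin to ask whether the transgene by itself goes with higher GBPs. No member passed, as for 0.00% of all genes in edgeR, and none had an unadjusted p under 0.05, against 7.67% of all tested genes. DESeq2 called 80 genes but no member. The 10 log2 fold changes ran from -0.87 (*Gbp10*, SE 1.02) to 0.14 (*Gbp4*, SE 0.75) with a median of -0.08. The nonlesional values of libraries 2 and 3 were 46.4 and 34.9 CPM for *Gbp2*, 25.9 and 21.7 CPM for *Gbp4*, 6.88 and 5.10 CPM for *Gbp5* and 6.82 and 4.37 CPM for *Gbp6*. They were 26.2 and 19.1 CPM for *Gbp7*, 1.13 and 0.245 CPM for *Gbp8* and 14.2 and 12.9 CPM for *Gbp9*. For these members the 2 libraries overlapped with WT skin. *Gbp10* was at 6.67 and 8.05 CPM in nonlesional skin and at 10.2 to 15.9 CPM in WT skin. The share of all genes with such a gap between 2 and 3 libraries was not counted. The SEs were 0.52 to 1.02, so differences of that size were not detectable with 2 nonlesional libraries. Nonlesional library 3 had 0 *Ifnk* counts and *Xist* at 0.319 CPM, while all WT skin libraries had *Xist*. With *Xist* as a covariate the median of the members was -0.35, and no member was called. The IRGs, the partners of GBPs at pathogen vacuoles, had a median of -0.11 (0 of 8 above 0), and 20 type I interferon-stimulated genes one of -0.43 (1 of 20 above 0), with 0 genes called in either list.

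Other interferon genes were called in lesional skin as well, to be read against the 23.0% of all genes called higher and the 20.2% called lower. Of the 8 IRGs 7 rose against WT (median log2 fold change 2.50, 8 of 8 above 0). *Igtp* went from 15.1 ± 3.46 CPM (SD, n = 3) to 111 ± 88.2 CPM (n = 4), a log2 fold change of 2.87 (SE 0.67, adjusted p = 0.0107), and *Iigp1* (2.92, adjusted p = 0.0185) and *Tgtp1* (3.00, adjusted p = 0.0212) were alike. Among 20 type I interferon-stimulated genes 5 rose, a share near that of all genes. Of the 20, 18 had a log2 fold change above 0 (median 0.89, against 0.06 over all tested genes). Those called included *Isg15*, a ubiquitin-like modifier, from 14.1 ± 2.28 to 80.2 ± 48.3 CPM (log2 fold change 2.51, adjusted p = 0.00936), with *Oas1a* (1.71) and *Xaf1* (1.24). The shares of the next 3 lists were not far above those of all genes. Of 10 genes that respond preferentially to IFNγ 3 rose (median 1.20, 10 of 10 above 0): the T cell chemokine *Cxcl9* (5.95, adjusted p = 0.00198), the checkpoint ligand *Cd274* (1.88) and *Serpina3g* (2.44). Of 9 inflammasome genes 3 rose (median 0.79, 8 of 9 above 0), namely the adaptor *Pycard* (1.67), the protease *Casp1* (0.62) and the cytokine *Il1b* (5.53). In the list of interferon signalling genes 5 of 15 rose and 2 fell (8 of 15 above 0). *Socs1*, a feedback inhibitor, rose by 1.83 on the log2 scale, the kinase *Jak1* fell by 0.72 and the receptor chain *Ifngr1* fell by 0.86. *Ifng* was at 0.114, 0 and 0.0989 CPM in WT skin and at 2.13, 0.839, 4.47 and 0.0901 CPM in lesional libraries 4 to 7, so that it was highest in the 2 libraries with the highest GBPs while library 7 lay within WT (log2 fold change 4.67, SE 1.51, adjusted p = 0.0357). Against nonlesional skin 2 of 8 IRGs (median 2.79), 4 of 20 type I genes (1.39), 1 of 10 genes of the IFNγ list (1.23) and 2 of 9 inflammasome genes (0.75) rose, against 13.2% of all genes, and of the 15 signalling genes 1 rose and 1 fell. Of the atlastins, the relatives of GBPs that shape the endoplasmic reticulum, 1 of 3 changed (*Atl2*, fell by 0.43), and of the giant interferon-inducible GTPases 0 of 3 tested were called, with 4 in the list.

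Cell type markers differed in these comparisons as well, and their part in the result was not tested. Counts of markers called in lesional against WT skin are likewise to be read against 23.0% of all genes higher and 20.2% lower. In bulk skin, more cells of a type and more RNA per cell cannot be told apart. T cell markers rose in 6 of 10 genes in lesional against WT skin, and their sum was 33.0 to 48.6 CPM in WT skin and 73.2, 89.1, 88.4 and 39.6 CPM in lesional libraries 4 to 7, so library 5 was among the highest for T cell genes and among the lowest lesional libraries for GBPs. The neutrophil sum was 10.3 to 20.4 CPM in WT skin and 573, 141, 76.0 and 65.0 CPM in lesional libraries 4 to 7 (4 of 7 tested genes rose, with *Ly6g* and *Ngp* at 0 in a WT and in a lesional library). Monocyte and macrophage markers summed to 680.5 to 1630 CPM in WT skin and 1022, 523, 1502 and 709 CPM in lesional libraries 4 to 7. Libraries 4 and 6 were again above 5 and 7, but within the WT range. Of the 9 genes 1 rose, and 3 had a log2 fold change above 0 (median -0.18). NK cell and cytotoxic markers rose in 3 of 8 genes and fell in 1. Their sum was 12.5 to 17.5 CPM in WT skin and 32.9, 25.2, 35.9 and 14.8 CPM in lesional libraries 4 to 7. Libraries 4 and 6 were thus the highest, and library 7 lay within WT. Plasma cell markers rose in 3 of 6 genes and fell in 1. Their sums were 454 to 489.5 CPM in WT skin, 628 and 658.5 CPM in nonlesional skin and 756.5 to 1223 CPM in lesional skin. B cell markers summed to only 0.798 to 3.61 CPM in WT skin and 2.89 to 5.25 CPM in lesional skin. Which cells the plasma cell sum comes from was not tested. Keratinocyte markers rose in 3 of 9 genes and fell in 1. Their sum was 10474 to 13085 CPM in WT skin, 21513 and 19546 CPM in nonlesional libraries 2 and 3, and 26278, 19702, 20970 and 9074 CPM in lesional libraries 4 to 7, so it was above WT in both nonlesional libraries, in which GBPs were not. Endothelial markers fell in 6 of 9 genes, from 317 to 454 CPM in WT skin to 127 to 266 CPM. Hair shaft markers rose in 8 of 8 genes, from 2.47 to 2.74 CPM to 1613 to 6062 CPM, and skeletal muscle markers fell in 3 of 8 genes, from 27776 to 38361 CPM to 26.2 to 7177 CPM. Adipocyte markers fell in 3 of 7 genes, from 7890 to 11344 CPM to 815 to 4213 CPM.

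Lymph nodes of irradiated and untreated WT mice were compared to ask what remains in the draining node 2 weeks after UVB. *Gbp3*, *Gbp2b* and *Gbp8* rose, 3 of 10 members against 2.92% of all 16173 tested genes called higher, and none fell. In 4 members (these and *Gbp2*) all irradiated libraries were above all untreated ones, against 19.8% of all genes. The median log2 fold change of the 10 members was 0.47, against 0.00 over all tested genes, and all 10 were above 0.

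*Gbp3* was at 40.5, 54.7 and 41.8 CPM in untreated WT libraries 1 to 3 and at 64.7, 71.7 and 65.7 CPM in irradiated WT libraries 7 to 9. The groups did not overlap, and the log2 fold change was 0.56 (SE 0.12, adjusted p = 0.0279). *Gbp2b* went from 80.1, 104 and 80.0 CPM to 121, 152 and 136 CPM (log2 fold change 0.63, SE 0.14, adjusted p = 0.0320). For *Gbp8* the values were 38.5, 49.5 and 27.7 CPM untreated and 61.8, 87.3 and 73.5 CPM irradiated (log2 fold change 0.94, SE 0.23, adjusted p = 0.0426), the largest of the family. *Gbp2* was at 137, 179 and 141 CPM untreated and 189, 219 and 220 CPM irradiated, also without overlap, and did not pass over all genes (log2 fold change 0.46, SE 0.16, adjusted p = 0.101). In every one of these genes untreated library 2 was the highest of its group. *Gbp7* (log2 fold change 0.50, adjusted p = 0.0921), *Gbp4* (0.38, adjusted p = 0.166) and *Gbp5* (0.27, adjusted p = 0.144) overlapped between the groups. *Gbp7* was at 172, 239 and 169.5 CPM untreated and 223, 308 and 288 CPM irradiated, *Gbp4* at 333, 431 and 320.2 CPM and 416, 518 and 477 CPM. The values of *Gbp5* were 62.2, 75.4 and 61.1 CPM untreated and 73.0, 82.4 and 84.2 CPM irradiated. In each of these 3 genes library 2 alone reached into the irradiated range. *Gbp10* (0.47, SE 0.33), *Gbp6* (0.36, SE 0.33) and *Gbp9* (0.03, SE 0.17) did not pass either, and in each of them library 2 stood above libraries 1 and 3: for *Gbp10* at 58.2 CPM against 25.5 and 31.2 CPM, for *Gbp6* at 55.4 against 25.9 and 29.0 CPM and for *Gbp9* at 358 against 239.8 and 228 CPM. Their irradiated libraries 7 to 9 were at 41.4, 53.1 and 64.7 CPM for *Gbp10*, 34.3, 54.8 and 52.2 CPM for *Gbp6* and 237, 299 and 306 CPM for *Gbp9*. Without library 2 the median of the members was 0.69 and the same 3 genes were called. Leaving out untreated WT library 1 or 3 or irradiated WT library 8 or 9 left no member called, and leaving out untreated TG library 6 left *Gbp3* alone. The irradiated TG libraries mattered through the shared fit: *Gbp8* was not called without library 11, and *Gbp7* was called as well without library 12. The median ran from 0.33 to 0.69 over all libraries left out in turn.

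Untreated *Ifnk* TG nodes were compared with untreated WT nodes, with which the UVB comparison shares its WT libraries, to ask whether the genotypes differ before UVB. No member passed the test in edgeR, as for 0.00% of all genes, and DESeq2, which called 2 genes, called no member. All 10 log2 fold changes were below 0, with a median of -0.28 against 0.00 over all tested genes. *Gbp10* (-1.08, SE 0.34), *Gbp6* (-0.84, SE 0.34) and *Gbp9* (-0.49, SE 0.17) had an unadjusted p under 0.05 (0.00970, 0.0306 and 0.0135), 3 of 10 members lower against 1.63% of all genes. *Gbp10* was at 21.4, 13.5 and 19.3 CPM in TG libraries 4 to 6, *Gbp9* at 192, 192 and 202 CPM and *Gbp7* at 154, 146 and 156 CPM, all below the lowest WT library. Of the others, *Gbp2* was at 157, 94.8 and 124 CPM, *Gbp4* at 329, 275 and 289.5 CPM, *Gbp5* at 65.7, 53.2 and 61.1 CPM and *Gbp8* at 32.6, 43.4 and 33.0 CPM in the TG libraries, overlapping with WT. *Gbp7*, *Gbp9* and *Gbp10* were the members whose TG libraries were all lower, against 4.93% of all genes. The IRGs had a median of -0.36 (0 of 8 above 0, 0 called). Here too WT library 2 carried much of the difference: without it the median was -0.14 and 1 member had an unadjusted p under 0.05.

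Irradiated *Ifnk* TG nodes are described without a test. Against untreated *Ifnk* TG nodes all 10 members were higher in every library, a pattern that 6.23% of all tested genes showed and that the choice of the family partly fixes. The median log2 fold change was 0.82, from 0.45 (*Gbp5*, SE 0.11) to 1.74 (*Gbp10*, SE 0.34). *Gbp2b* was at 86.7, 61.7 and 69.7 CPM in untreated TG libraries 4 to 6 and at 135, 151 and 125 CPM in irradiated TG libraries 10 to 12 (log2 fold change 0.91, SE 0.14). *Gbp3* was at 44.4, 38.5 and 40.6 CPM untreated and 62.9, 68.2 and 56.9 CPM irradiated (0.61, SE 0.12). *Gbp10* reached 50.2, 83.0 and 48.3 CPM and *Gbp6* 47.3, 59.8 and 38.6 CPM, from 27.9, 14.9 and 18.8 CPM. The other members in irradiated TG libraries 10 to 12 were at 209.8, 245 and 209.7 CPM (*Gbp2*), 532, 560.1 and 354 CPM (*Gbp4*) and 75.2, 91.3 and 79.6 CPM (*Gbp5*). *Gbp7* was at 275, 322 and 213 CPM, *Gbp8* at 89.9, 67.6 and 56.3 CPM and *Gbp9* at 277, 329 and 228 CPM. Library 12 was the lowest of the 3 for 9 of 10 members. After UVB the 2 genotypes lay side by side: the log2 fold changes of TG over WT ran from -0.10 (*Gbp3*, SE 0.11) to 0.19 (*Gbp10*, SE 0.33) with a median of 0.02, and the libraries overlapped in every member. The UVB response of TG minus that of WT had a median of 0.32. It was 0.28 (SE 0.20) for *Gbp2b*, 0.05 (SE 0.16) for *Gbp3* and 0.03 (SE 0.32) for *Gbp8*, and 1.27 (SE 0.47) for *Gbp10* and 0.89 (SE 0.47) for *Gbp6*, the members in which the untreated genotypes stood farthest apart.

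**Figure D3:**
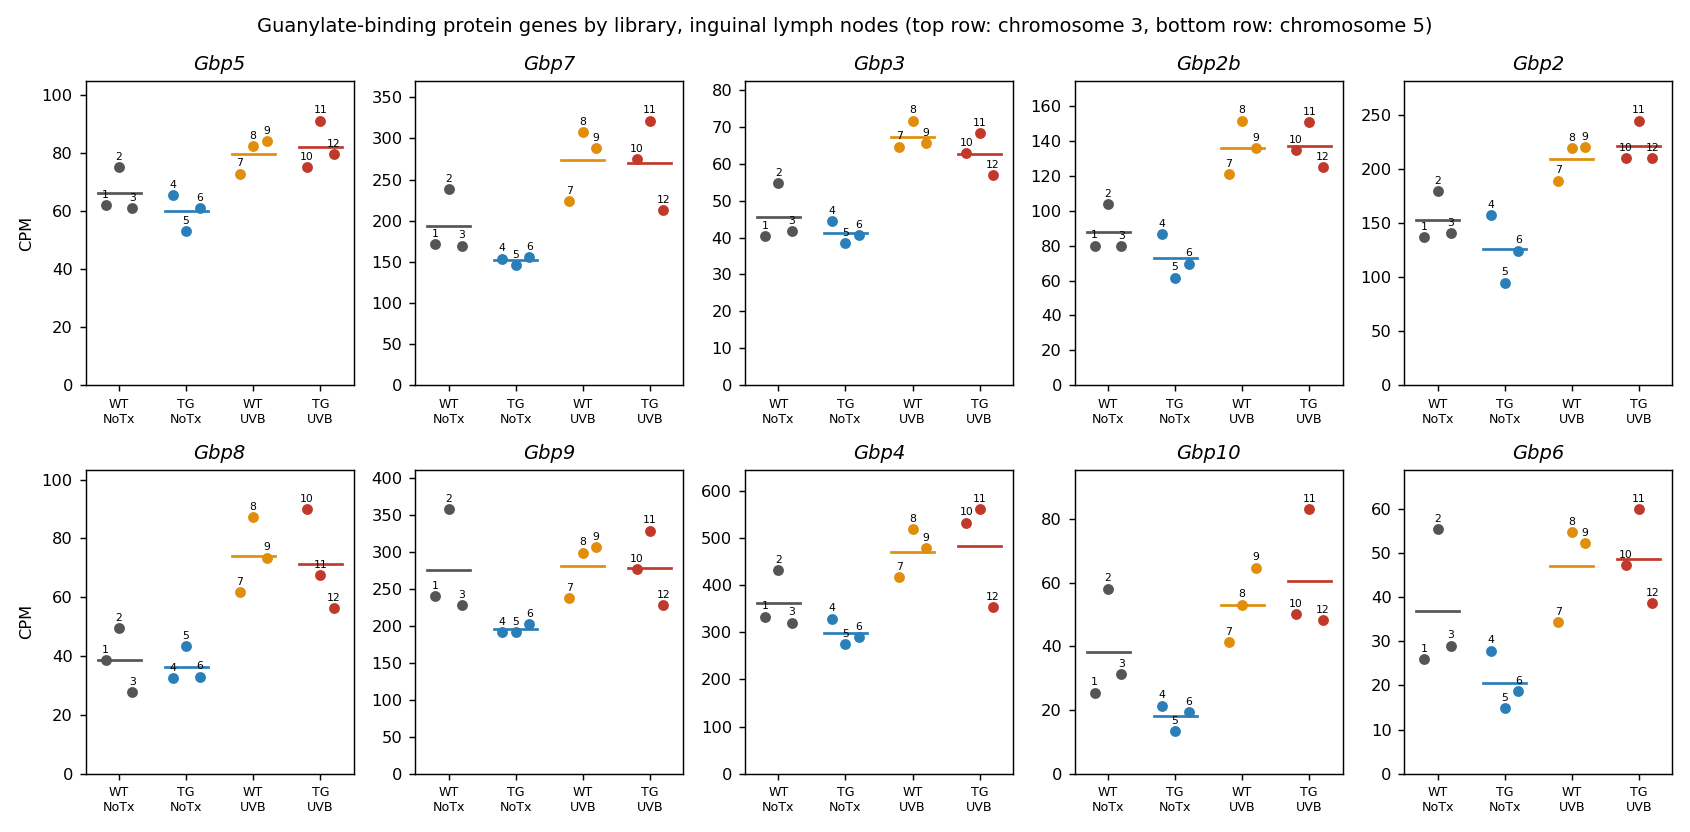
CPM (axis from 0) of each GBP gene in the 12 node libraries, by genotype and treatment (NoTx, untreated); points are libraries with the sample number of the labels and bars are group means. For *Gbp3*, *Gbp2b*, *Gbp2* and *Gbp8* all irradiated WT libraries are above all untreated WT ones, as in 19.8% of all genes. WT library 2 is the highest untreated library for all 10 genes. Irradiated TG libraries are shown without a test, because the choice of the family partly fixes their values.

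The lists of other interferon genes had medians of either sign in the nodes, and the difference between lists was not tested. After UVB in WT nodes all 8 IRGs had log2 fold changes above 0 (median 0.51), and *Irgm2*, a regulator of the IRGs, was called (from 117 ± 21.2 to 197 ± 36.5 CPM, n = 3 each, log2 fold change 0.75, adjusted p = 0.0318). Of 15 signalling genes 3 rose, where 2.92% of all genes rose and 2.06% fell: the transcription factor *Irf1* (from 215 ± 27.0 to 311 ± 30.1 CPM, log2 fold change 0.53, adjusted p = 0.0303), *Socs1* (0.56, adjusted p = 0.0325) and *Ifng* (1.51, adjusted p = 0.0343). *Ifng* was at 0.845, 0.533 and 0.338 CPM in untreated WT nodes and at 1.32, 2.00 and 1.59 CPM in irradiated WT nodes, where it rested on 44 to 55 counts per library. In irradiated TG nodes *Ifng* was at 0.901, 0.835 and 0.826 CPM (24 to 31 counts per library), below all irradiated WT libraries. The share of all genes with such a gap was not counted, and the part of *Ifng* in the GBP values was not tested. Among the giant GTPases *Gm4070* (0.68, adjusted p = 0.0495) and *Gm4759* (0.39, adjusted p = 0.0443) rose, and *Pycard* was the only inflammasome gene of 9 called, with a log2 fold change of -0.67. Of the IFNγ list 0 of 9 tested genes were called (median -0.21), and of the atlastins 0 of 3 (0.32). Of the 20 type I interferon-stimulated genes none was called in either node comparison, none had a log2 fold change above 0 after UVB in WT nodes (median -1.10) and none was above 0 in untreated TG against WT nodes (median -1.73). *Ifit1*, which binds foreign RNA and was picked for display after its values were seen, was at 17.7, 112 and 91.8 CPM in untreated WT libraries 1 to 3 and at 4.51, 6.91 and 30.3 CPM in irradiated WT libraries 7 to 9. It was at 7.97, 4.48 and 6.48 CPM in untreated TG nodes and at 12.6, 79.0 and 22.7 CPM in irradiated TG nodes. Library 2 was thus high for *Ifit1* and for all GBPs, while library 3 was high for *Ifit1* with GBPs as in library 1. As means of log2 CPM relative to all nodes, libraries 2 and 3 were at 1.67 and 0.95 for the type I list and at 0.22 and -0.34 for the GBPs, and the irradiated WT libraries 7 to 9 were at -1.17, -0.77 and 0.55 for the type I list and at 0.11, 0.46 and 0.42 for the GBPs.

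**Figure D4:**
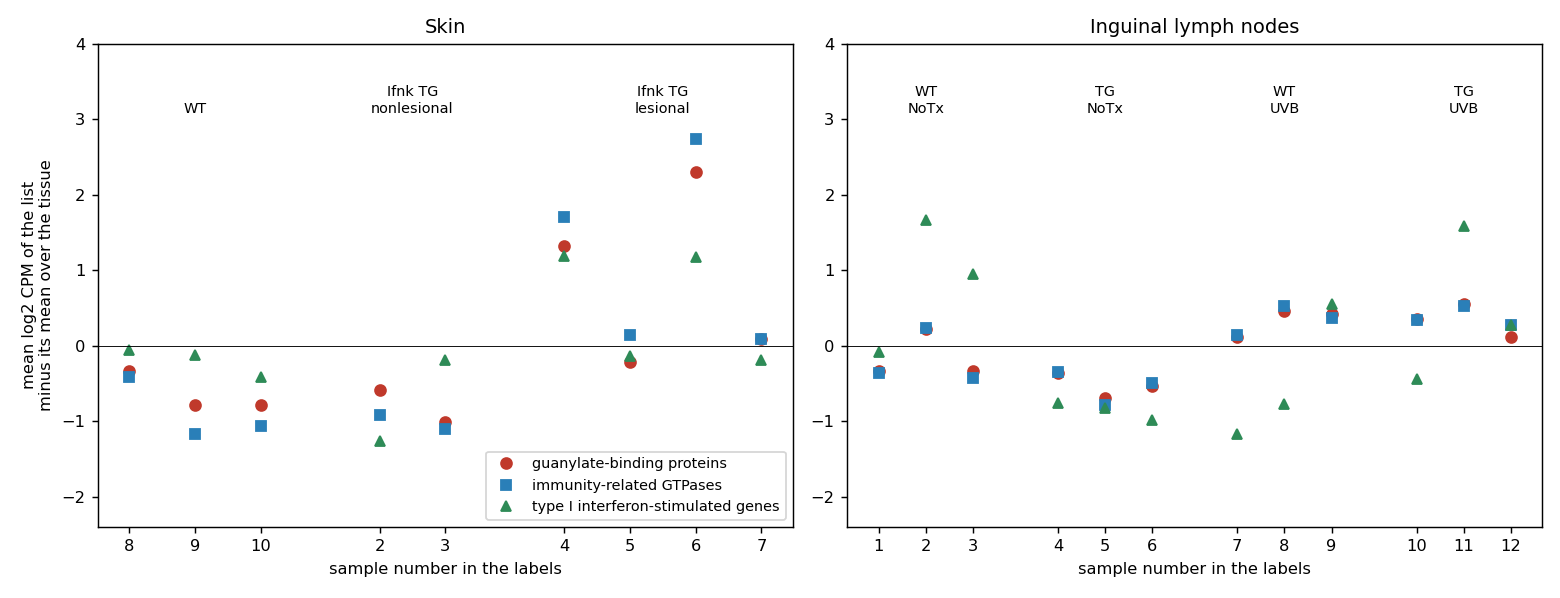
Mean log2 CPM of the 10 GBPs, the 8 IRGs and 20 type I interferon-stimulated genes in each library, minus the mean of the list over the tissue (y axis), by sample number (x axis) and group. In nodes GBPs and IRGs lie close together in every library, while the type I list is at 1.67 in untreated WT library 2 and at -1.17 in irradiated WT library 7.

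Blood, stromal and endothelial markers also differed between the nodes, and their part in the GBP result was not tested. Erythroid genes fell in 4 of 6 tested genes after UVB in WT nodes, from 122 to 264 CPM in sum to 10.8 to 39.5 CPM, with *Slc4a1* at 0 in a library. The sum of fibroblast markers was 46.5 to 66.5 CPM in untreated and 13.9 to 38.4 CPM in irradiated WT nodes (1 of 7 genes fell), and that of endothelial markers 279 to 326 and 200.1 to 238 CPM (1 of 9 fell). T cell markers, the bulk of the node together with B cells, summed to 3520 to 3554 CPM and 2777 to 3172 CPM (1 of 10 fell), and no B cell, NK cell, dendritic cell or macrophage marker was called. In untreated TG against WT nodes no marker of any list was called, but some sums stood apart beside the lower GBP values: T cell sums were 3175 to 3387 CPM in TG and 3520 to 3554 CPM in WT nodes (0 of 10 genes above 0), and dendritic cell sums were 123 to 142 CPM in TG and 72.8 to 108 CPM in WT nodes (7 of 7 genes above 0).

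**Figure D5:**
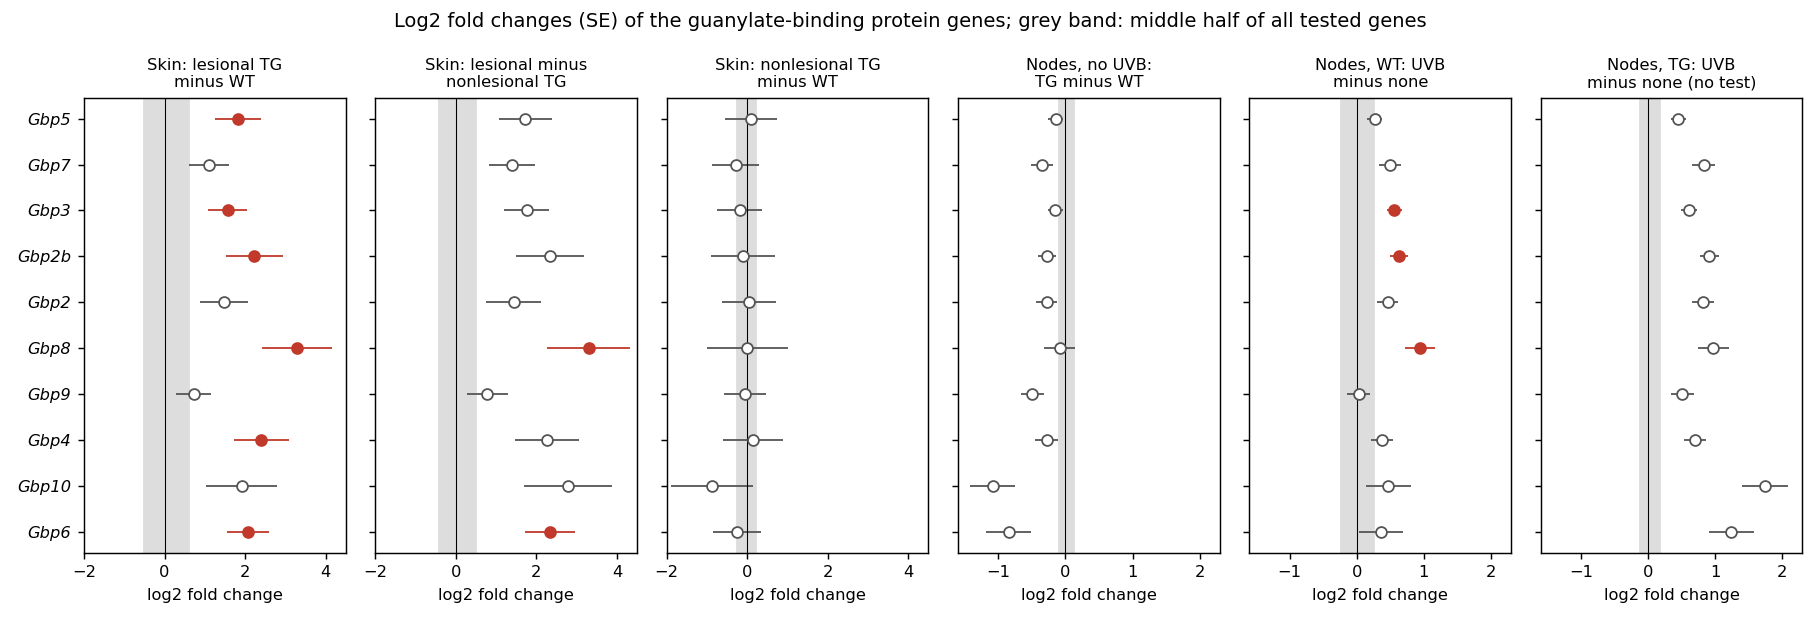
Log2 fold changes (x axis, with SE) of the 10 GBP genes (y axis) in 6 comparisons; filled red points passed an adjusted p under 0.05, open points did not or, in the last panel, were not tested, and the grey band spans the middle of all tested genes from the lower to the upper quartile. The members lie right of the band in lesional skin, around 0 in nonlesional skin and mostly right of the band after UVB.

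Members varied together across libraries of a tissue. Over the 45 pairs of members, Pearson's r of log2 CPM was 0.77 to 0.99 (median 0.93) in the 9 skin libraries and 0.64 to 0.98 (median 0.90) in the 12 node libraries. The lowest value in nodes was that of *Gbp8* with *Gbp9* and the highest that of *Gbp2* with *Gbp2b* (0.98). These correlations include the differences between groups and the overlapping loci, and are descriptions. The genes most like *Gbp2b* were *Irgm2* (r = 0.99), *Irf1*, *Il18bp*, *Samhd1* and *Parp12* in skin and *Igtp* (r = 0.99), *Gm18852*, *Tgtp1*, *Tgtp2* and *Irgm2* in nodes. Those most like *Gbp3* were *Ifi47* (r = 0.99), *Tgtp2*, *Gm12250*, *Il18bp* and *Gm43302* in skin and *Igtp* (r = 0.97), *Gm18852*, *Irgm2*, *Tgtp1* and *Gm4070* in nodes. For the mean of the members they were *Tgtp2*, *Gm12250*, *Gm43302*, *Irgm2* and *Iigp1* in skin and *Tgtp2*, *Tgtp1*, *Igtp*, *Gm43302* and *Gm4070* in nodes. *Igtp*, *Irgm2*, *Iigp1*, *Tgtp1*, *Tgtp2*, *Ifi47* and *Gm12250* are IRGs.

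Genes beside the clusters had medians of either sign. In lesional against WT skin their median log2 fold change was -0.41 for chromosome 3 and 0.26 for chromosome 5, against 0.06 over all genes. Against nonlesional skin it was -0.32 and 0.81, against 0.03. After UVB in WT nodes it was 0.04 and 0.24, against -0.005. *Gbp11* is among the chromosome 5 neighbours. In lesional against WT skin 23.0% of all genes were called higher and 20.2% lower. Within 500 kb of the chromosome 3 cluster 5 further genes were tested in skin, and in lesional against WT skin *Gtf2b* rose (log2 fold change 0.47) while *Pdlim5*, *Pkn2* and *Gm2574* were lower (-1.11, -0.41 and -1.92). Around the chromosome 5 cluster 1 of 7 tested genes was called there, *Gm43302*, which overlaps members. Against nonlesional skin *Gtf2b* (0.37) and *Lrrc8c* (0.81) rose and *Pdlim5* (-0.96) and *Gm2574* (-1.72) were lower. After UVB in WT nodes *Lrrc8b* and *Lrrc8c*, next to the chromosome 5 cluster, were lower (-0.66 and -0.60), and no neighbour was called in the other 2 tested comparisons.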

How the data were processed

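RNA from 9 skin and 12 inguinal lymph node libraries of mice was sequenced by the authors as paired reads of poly-A libraries. Reads were aligned to GRCm38, and the submitters' processing notes list cutadapt 4.8, STAR 2.7.8a and RSEM 1.3.3. The authors deposited RSEM expected counts per gene, which are not normalized, with reads shared between similar genes divided by the model, so paralogs are less certain. These counts were rounded to whole numbers before the fit. Strand handling is not given in the sources used here.

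Genes were filtered with filterByExpr, which left 19101 genes in skin and 16173 in nodes. Each tissue was fitted by group with edgeR 4.0.16 (TMM, robust quasi-likelihood F-test, R 4.3.3), and p-values were adjusted by Benjamini-Hochberg over all tested genes of a comparison. Calls are at an adjusted p under 0.05. The authors used DESeq2, which (version 1.42.0) is an alternative here. The standard error was taken from the log2 fold change and the F statistic. CPM are counts scaled to TMM-adjusted library size, and CPM per kb are divided by the union exon length of GENCODE M21, matched for 55227 of 55491 genes. A count of 0 allows up to 3 counts, for counting error only.

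Members and lists were chosen with earlier results of these data known. All 10 members are named, with up to 3 called genes per list by lowest adjusted p, called neighbours within 500 kb, the 5 genes most alike, and, chosen after their values were seen, *Ifit1*, *Ifng* in skin and *Gbp11*. Some list genes are counted in their lists and not reported here by name. Promoters are from RefSeq. Protein features were not analysed here, nor were promoters of *Gbp4*, *Gbp6*, *Gbp8*, *Gbp9* and *Gbp10*. The fit was tested on simulated data. Alternatives were RLE scaling, 2 other filters, *Xist* as a covariate, DESeq2, fits of the compared groups alone and each library left out in turn.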

Additional observations from a re-analysis of the deposited data

How the results depend on the processing

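No called result turned its direction under the alternatives tried. Medians near 0 took either sign: that of nonlesional against WT skin (-0.08) was 0.01 without WT library 8 and 0.04 without nonlesional library 3. No paired analysis was possible because the groups compared share no sample number. Counts of members called in lesional against WT skin (6) were 2 to 8 under other settings and 0 to 9 with single libraries left out, and 2 with no filter. Against nonlesional skin (2) they were 0 with no filter, 9 with DESeq2, 0 in a fit of the compared groups alone and 0 to 6 with libraries left out. After UVB in WT nodes (3) they were 5 with DESeq2, 1 with *Xist* as a covariate (at most 1.46 CPM in nodes, so it separates no sexes there) and 0 to 4 with libraries left out. Nonlesional against WT skin and untreated TG against WT nodes had 0 under every alternative. Pathway genes called, 25 in lesional against WT skin, were 15 with no filter and 10 to 40 with libraries left out. Against nonlesional skin 11 became 7 with no filter, 33 with DESeq2, 21 with *Xist*, 2 in the fit of the compared groups and 0 to 28 with libraries left out, and after UVB in WT nodes 7 became 13 with DESeq2, 0 with *Xist*, 11 in the fit of the compared groups and 0 to 12. The cause was not tested. Over all genes, UVB in WT nodes called 472 higher and 333 lower, against 1118 and 884 with DESeq2, 119 and 89 with *Xist*, 1569 and 862 in the fit of the compared groups, and 0 and 0 without irradiated library 8. Lesional against nonlesional skin called 2519 and 2263, against 1817 and 1339 in the fit of the compared groups and 657 and 525 without nonlesional library 3. The medians without a test were 0.71 to 0.91 (UVB in TG), -0.10 to 0.12 (TG against WT after UVB) and 0.16 to 0.44 (difference of the UVB responses) with libraries left out, and the last has no fit of compared groups alone. Relative to the median of all genes, an alternative added after seeing the data, each value moved by at most 0.06.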
